A study of Saccharomyces cerevisiae with 4 samples.

Results

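The mitochondrial ribosomal proteins are the nuclear-encoded proteins of the ribosome that works inside mitochondria. The genes described were given as a list of 59 ORF identifiers with the names MRPL, MRPS, MRP, IMG, RML2, NAM9 and PET123, of 5441 ORFs measured. The rule uses no measured value, but the members were chosen with earlier results of these data known. Of the 59, 40 encode proteins of the large subunit and 19 of the small subunit, and all 59 carry that subunit in the product name of the RefSeq annotation. Proteins of the same ribosome that carry other names, such as the RSM proteins, are not in the list and are described apart as neighbours in the pathway.

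The measurements come from ribosome profiling of Saccharomyces cerevisiae strain Y7092, a method that sequences the mRNA fragments protected by ribosomes, called footprints. There are 4 libraries, 1 per group, from whole cell lysates of cells in early log phase in synthetic defined medium, taken 2 h after the plasmid-borne gene was induced. The groups are wild-type cells with pAG416GAL-ccdB (the control plasmid), cells labelled wild type with pAG416GAL-TIF4631, vps35::natMX cells with the control plasmid, and vps35::natMX cells with pAG416GAL-TIF4631. VPS35 encodes a subunit of retromer, which returns membrane proteins from endosomes, and TIF4631 encodes the scaffold protein eIF4G1 of cytosolic translation initiation, here placed behind a galactose-inducible promoter. Retromer loss combined with an excess of this initiation factor is the pairing that the design sets up.

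Summed counts per library lay between 11240681 and 18067205, and the 59 genes had between 264 and 2566 counts each in a library, with a median of 891. VPS35 had 2187, 1974, 9 and 10 counts in the wild-type control library, the library labelled as wild type with TIF4631, the vps35 control library and the vps35 TIF4631 library. Both libraries labelled as deletion were near 0. TIF4631 stood at 455, 403, 435 and 6217 CPM (counts scaled to a common library size) in the same order. The library labelled as wild type with TIF4631 therefore shows no excess of TIF4631 over its control, and any comparison that uses it is named by its label only. URA3, the marker gene of pAG416 plasmids, stood at 855, 884, 732 and 118 CPM, lowest in the library with the TIF4631 excess. Below, 4 values in a row always follow the order wild-type control, labelled wild type with TIF4631, vps35 control, vps35 TIF4631.

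Mitochondrial ribosomes translate the few mRNAs of the mitochondrial genome, which in yeast encode core subunits of the respiratory chain and of the ATP synthase. Nearly all of their proteins are encoded in the nucleus, made by cytosolic ribosomes, imported and assembled with the mitochondrial ribosomal RNAs. The single ribosomal protein that yeast mitochondria encode themselves is Var1, of the uS3 family of the small subunit. Many of the mRNAs for the imported proteins are bound by Puf3, an RNA-binding protein that recognises a short element after the stop codon and, depending on the carbon source, promotes decay of these mRNAs or their translation near mitochondria.

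That element was searched for as TGTANATA in the DNA of the coding strand, in the 250 bases after each stop codon, in the RefSeq R64 genome (the assembly of sacCer3). All 59 members held it, against 16.1% of all 5421 nuclear ORFs in the files and 15.2% of those that are not members. On the opposite strand of the same windows, 12 of 59 members (20.3%) and 811 of 5421 nuclear ORFs held it. The sequences below show the first element of the 5 large-subunit and 3 small-subunit genes with the lowest footprint ratio in the vps35 TIF4631 library, then of MRPL28 and MRP10, the genes of each subunit whose ratio was closest to 0, and of MRPL3. They are 5′ to 3′ on the coding strand, with the element in capitals and 8 bases on each side.
MRP7: agaatgccTGTAAATAttactatt
IMG2: aattgtcaTGTATATAtattaatt
MRPL51: attatactTGTATATAtaatttgg
MRPL10: ttctcactTGTACATAccttaaga
MRPL27: aatatgcgTGTAAATActagtttt
MRPS9: gttattccTGTAAATAaagttata
PET123: tatgcccaTGTATATAcgtcactt
MRPS28: gaaaagctTGTAAATAagaaaccg
MRPL28: tctcctgcTGTAAATAactgatga
MRP10: catggcctTGTATATAcaaattaa
MRPL3: tgccatttTGTAGATAgagaactc

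In R64 coordinates, the capitals of MRP7 lie at chrXIV:621254-621261 on the minus strand, those of IMG2 at chrIII:240064-240071 on the minus strand and those of MRPL51 at chrXVI:730261-730268 on the plus strand. Those of MRPL10 lie at chrXIV:103086-103093 on the minus strand, of MRPL27 at chrII:768709-768716 on the plus strand and of MRPS9 at chrII:536235-536242 on the plus strand. Those of PET123 lie at chrXV:633231-633238 on the plus strand, of MRPS28 at chrIV:1147208-1147215 on the plus strand and of MRPL28 at chrIV:1386548-1386555 on the plus strand. Those of MRP10 lie at chrIV:372591-372598 on the plus strand and those of MRPL3 at chrXIII:323065-323072 on the plus strand. All 11 are downstream of the stop codon of the gene named, and none is part of its coding sequence. The search fixed every letter of the element but the base written N, so only that letter could vary among them. Every member held the element, so its presence does not set genes with the lowest ratios apart from those with the highest.

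Across the 59 genes the windows held 72 elements, of which 33 were spelled TGTAAATA, 24 TGTATATA, 14 TGTACATA and 1 TGTAGATA. The single TGTAGATA is the first of the pair in MRPL3 printed above. More than 1 element was found in 12 genes. The first element started at a median of 52 bases after the stop codon, and within 150 bases in all 59. In the other nuclear ORFs that held an element, the median start of the first was 63 bases. A match of these letters is a description of the sequence and does not show that Puf3 was bound in these cells.

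**Figure D1:**
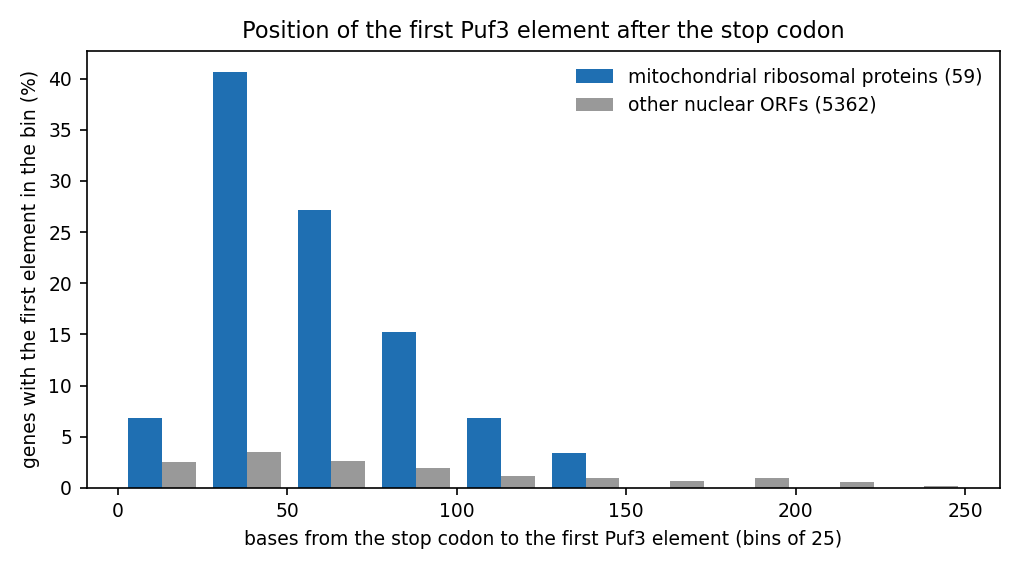
Bars give the percentage of genes whose first TGTANATA on the coding strand starts in each bin of 25 bases after the stop codon, for the 59 mitochondrial ribosomal protein genes (blue) and 5362 other nuclear ORFs (grey). The blue bars add up to all 59 genes and end by 150 bases, whereas the grey bars add up to 15.2%.

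After these sequences had been seen, the base 2 places before the element was counted as well. It was C in 47 of the 72 elements (65.3%) in members and in 218 of 888 elements (24.5%) in other nuclear ORFs. Counted by gene, 47 of 59 members held an element with this C, against 4.81% of all nuclear ORFs. Of the elements printed above, those of MRPL28 and MRPL3 lack it, while that of MRP10 has it. The second element of MRPL3, which starts 53 bases after the stop codon and is not printed, has this C. MRPL3 is therefore among the 47 members with it. This feature was chosen after the sequences were read.

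The levels of the members were close to each other. Levels between genes are compared by RPKM, the deposited reads per kilobase scaled to the reads of the library. The length behind these values was the annotated coding length less 15 nt for all 59 members, within 0.5 nt. Against the whole coding length this raises the RPKM of members by between 1.04% and 7.58%, the most for MRPL39 with its 213 nt. The median of the 59 genes was 99.8, 93.3, 96.0 and 72.0 RPKM in the 4 libraries, against 41.9, 40.7, 42.5 and 43.9 RPKM for the 4997 ORFs that passed a minimum of 200 summed counts. The whole set spanned 3.11-fold from lowest to highest by mean RPKM over the 4 libraries, and its quartiles lay 1.39-fold apart. Nuclear genes of the respiratory chain and ATP synthase, whose partner subunits the mitochondrial ribosome makes, had medians of 1350, 1379, 1309 and 1156 RPKM. The measured cytosolic ribosomal protein genes had 3281, 2659, 3117 and 3302 RPKM.

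In the large subunit the highest mean was 202 RPKM for MRPL39, of the bL33 family, followed by MRPL44 (mL53) with 137 RPKM and MRPL23 (uL13) with 124.7 RPKM. MRPL39 stood at 228, 223, 204 and 153 RPKM in the 4 libraries and MRPL44 at 142, 153, 149.5 and 103 RPKM. Both were highest in a wild-type library and lowest in the vps35 TIF4631 library. The lowest means were 66.9 RPKM for MRPL3 (mL44, a protein with an RNase III fold), 67.7 RPKM for MRP20 (uL23, at the polypeptide exit) and 68.0 RPKM for RML2 (uL2, near the catalytic centre). Those 3 do not stand apart from each other: in the wild-type control library they had 75.9, 70.8 and 79.6 RPKM, an order unlike that of their means. With RPKM per whole coding length MRPL19 (uL11) would take the place of RML2 among the 3 lowest, and the 3 highest would keep their order.

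In the small subunit the order by mean RPKM began with MRP2 (uS14) at 206 RPKM, MRPS12 (uS12, a part of the decoding centre) at 176 RPKM and MRP10 (mS37, a cysteine-rich protein imported through the intermembrane space) at 153 RPKM. MRP2 stood at 233, 202, 217 and 172 RPKM, MRPS12 at 188, 184, 192 and 139.8 RPKM and MRP10 at 165, 158, 149 and 139.9 RPKM. MRP2 was above MRPS12 in all 4 libraries, and MRPS12 was above MRP10 in all but the vps35 TIF4631 library, where the pair was level. The lowest means belonged to MRPS35 (mS45) with 66.3 RPKM, PET123 (mS26) with 69.7 RPKM and NAM9 (uS4) with 70.9 RPKM. The names PET123 and NAM9 recall genetic screens for respiration and for suppression of mitochondrial mutations.

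As a group, the 59 genes held a smaller share of all footprints in the vps35 TIF4631 library than in each of the other 3. They took 0.392% (95% exact binomial interval 0.389 to 0.395) of all counts in the wild-type control library, 0.367% (0.364 to 0.370) in the library labelled as wild type with TIF4631 and 0.387% (0.384 to 0.391) in the vps35 control library. In the vps35 TIF4631 library they took 0.285% (0.283 to 0.288). The large subunit had 0.248%, 0.230%, 0.244% and 0.180%, and the small subunit 0.144%, 0.137%, 0.143% and 0.105%. All 59 genes had their lowest CPM in the vps35 TIF4631 library, as did 1846 of the 4997 ORFs kept (36.9%). The highest CPM fell in the wild-type control library for 35 genes, in the library labelled as wild type with TIF4631 for 11 and in the vps35 control library for 13. The matching shares of all ORFs were not computed, so these counts do not show a trait of the members.

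**Figure D2:**
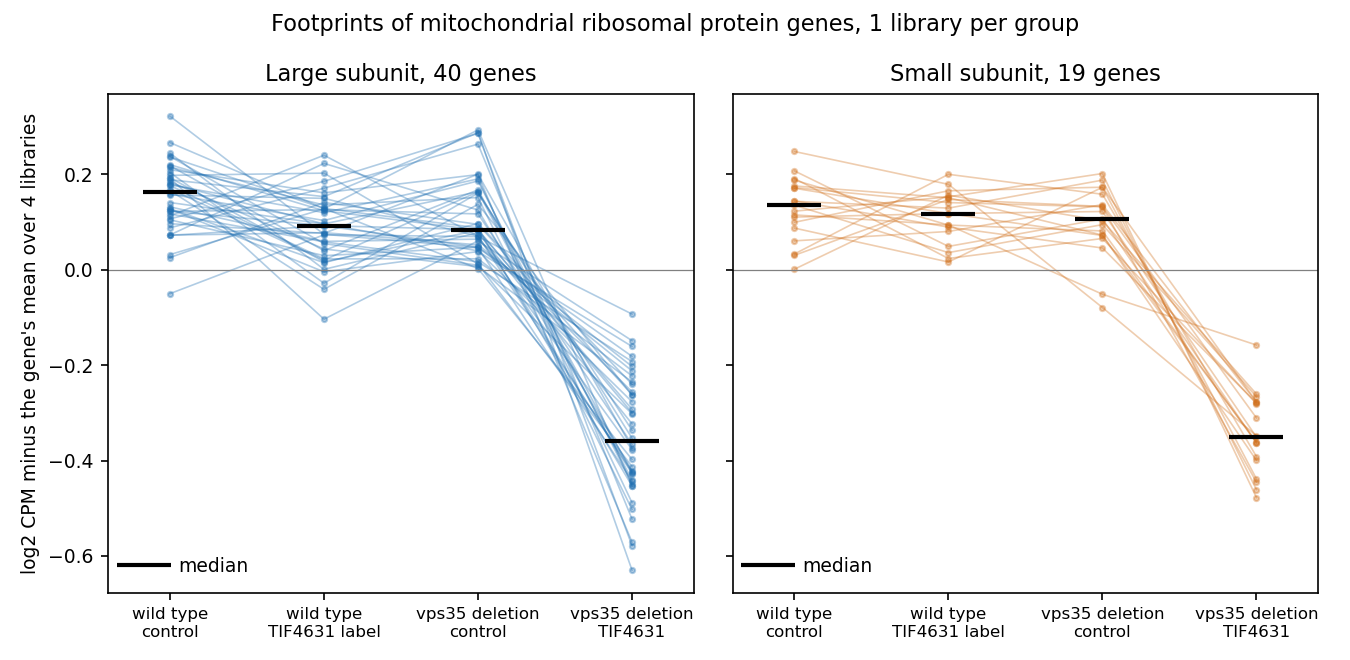
Each line is a gene, plotted as log2 CPM minus that gene's own mean over the 4 libraries, for the large (left, 40 genes) and small subunit (right, 19 genes), with black bars for the medians. Every gene lies below its own mean in the vps35 TIF4631 library, and the other 3 libraries overlap.

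Footprints reflect both the amount of an mRNA and its translation, so they are not a measure of translation alone, and RNA sequencing of the same cells was not analysed here. Less mRNA, less translation of it, or a culture in which fewer cells express these genes cannot be told apart. All intervals on ratios are 95% counting intervals, which treat each read as independent and leave out variation between cultures and libraries. Reads amplified by PCR and not tagged by molecule can repeat one another, so the intervals may be too narrow even for counting error. Each group is a single library with no replicate spread, so a ratio compares libraries, and a gene was counted as lower or higher when its log2 ratio was at least 0.32 in size and its interval excluded 0. This is the rule of size used below.

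With the control plasmid in both, the vps35 deletion was compared with wild type, which addresses loss of retromer by itself. Mitochondrial ribosomal protein genes stood at nearly the same level in both libraries. The median log2 ratio was -0.04 in the large subunit and -0.04 in the small subunit, with all ORFs at a median of 0.00. By the rule of size a single gene of 59, MRP21, was lower, where 4.06% of all ORFs were lower, and 0 were higher, where 3.92% of all ORFs were. Beyond counting error, with no size required, 11 members were lower, against 17.3% of all ORFs, and 3 were higher, against 17.2%. By a 1.5-fold rule 0 members were lower, against 1.34% of all ORFs.

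MRP21 (YBL090W, chrII:48825-49358), of the bS21 family, stood at 50.2, 47.8, 40.0 and 33.2 CPM and had a log2 ratio of -0.33 (-0.49 to -0.16). Both vps35 libraries were below both libraries labelled wild type for this gene, as they were for other members such as MRP4 and MRPL39. Its ratio lies just past the threshold, and with scaling by total counts no member passed. The next lowest small-subunit gene was MRP10, at -0.17 (-0.34 to 0.00), whose interval reached 0. The highest of the small subunit were MRPS18 (uS11), at 0.13 (0.01 to 0.24), and MRPS16 (bS16), at 0.10.

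In the large subunit the lowest ratios were -0.27 (-0.44 to -0.11) for MRPL50 (bL9) and -0.26 (-0.40 to -0.13) for MRPL7 (uL5, of the central protuberance). The highest were 0.26 (0.11 to 0.42) for MRPL27 (mL41) and 0.18 for IMG2 (mL49). IMG2 takes its name from the integrity of the mitochondrial genome, which is lost when mitochondrial translation fails. MRPL27 and IMG2 had the highest ratios here and are among the lowest in the next comparison, which shares the vps35 control library.

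The comparison of TIF4631 with the control plasmid within vps35 deletion cells uses the library with the TIF4631 excess, 14.3-fold over its control. Here mitochondrial ribosomal protein genes were lower throughout. All 59 log2 ratios were below 0, with a median of -0.44 in the large subunit (1.35-fold) and -0.44 in the small subunit (1.36-fold), while the median of all ORFs was 0.01. Of 59 members 45 were lower, 28 of 40 in the large and 17 of 19 in the small subunit, against 16.3% of all ORFs, and 0 were higher, against 13.8% of all ORFs. By a 1.5-fold rule 13 members were lower, against 4.94% of all ORFs, and by a 2-fold rule 0 were, against 0.560%. Because the members were chosen with earlier results of these data known, these counts are not independent evidence.

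The differences were thus modest for any 1 gene and shared by nearly the whole set. Beyond counting error 58 of 59 members were lower, against 31.3% of all ORFs, and the exception was MRP10. The ratios ran from -0.92 to -0.16 in the large subunit and from -0.68 to -0.11 in the small subunit. In the same library URA3, the plasmid marker, was 6.21-fold below its level in the vps35 control library, and its part in the result was not tested.

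MRP7 (YNL005C, chrXIV:621313-622428), of the bL27 family, whose bacterial member reaches into the catalytic centre, had the lowest ratio. It stood at 87.2, 85.1, 93.4 and 49.4 CPM, a log2 ratio of -0.92 (-1.05 to -0.78), or 1.89-fold lower. The 3 libraries without the TIF4631 excess lay close together and the fourth well below them.

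IMG2 (YCR071C, chrIII:240103-240543), of a protein family found only in mitochondrial ribosomes, stood at 34.4, 36.3, 38.9 and 21.4 CPM, a log2 ratio of -0.86 (-1.07 to -0.66). MRPL51 (YPR100W, chrXVI:729791-730213, mL43), also of a mitochondria-only family, stood at 49.04, 51.9, 55.4 and 32.1 CPM and had a log2 ratio of -0.79 (-0.95 to -0.62). In both genes the vps35 control library was the highest of the 4 and the vps35 TIF4631 library the lowest. The ORF of MRPL51 overlaps the annotated ORF YPR099C, so its count may hold reads of that neighbour.

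MRPL10 (YNL284C, chrXIV:103134-104102, uL15) stood at 91.1, 88.1, 90.5 and 53.0 CPM, a log2 ratio of -0.77 (-0.90 to -0.64). MRPL27 (YBR282W, chrII:768240-768680) stood at 44.4, 47.5, 53.3 and 31.8 CPM, a log2 ratio of -0.75 (-0.92 to -0.58). In both the vps35 TIF4631 library was lowest, and the other 3 libraries lay closer together for MRPL10 than for MRPL27.

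At the other end of the large subunit, MRPL28 (YDR462W, chrIV:1386073-1386516, mL40) stood at 45.1, 49.1, 48.97 and 43.8 CPM, a log2 ratio of -0.16 with an interval whose upper end lay just below 0. MRP49 (mL61) had a log2 ratio of -0.20 (-0.37 to -0.03) and MRPL3 (mL44) one of -0.21 (-0.34 to -0.08). MRPL3 (YMR024W, chrXIII:321875-323047) stood at 88.1, 71.8, 80.4 and 69.6 CPM and was nearly as low in the library labelled as wild type with TIF4631 as in the vps35 TIF4631 library, unlike MRP7 or IMG2.

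Small-subunit genes spanned a narrower range, over fewer genes. MRPS9 (YBR146W, chrII:535260-536096, uS9, whose bacterial member touches the tRNA in the decoding region) stood at 86.2, 88.0, 91.1 and 56.9 CPM, a log2 ratio of -0.68 (-0.81 to -0.55). PET123 (YOR158W, chrXV:632164-633120) stood at 71.5, 70.8, 73.8 and 47.0 CPM, a log2 ratio of -0.65 (-0.79 to -0.51). MRPS28 (YDR337W, chrIV:1146319-1147179, uS15) stood at 75.4, 79.0, 79.4 and 52.0 CPM, a log2 ratio of -0.61 (-0.75 to -0.48). In all 3 genes the first 3 libraries differed little and the fourth was far lower.

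The highest small-subunit ratio was that of MRP10 (YDL045W-A, chrIV:372248-372535), at 45.2, 44.5, 40.3 and 37.4 CPM, with -0.11 (-0.28 to 0.07). For MRP10, as for MRP21, both vps35 libraries were below both libraries labelled wild type. This order is not particular to them, and MRP51, for example, stood at 145.7, 136.4, 135.3 and 99.4 CPM. MRP21 followed with -0.27 (-0.45 to -0.09) and MRPS5 (uS5, at the mRNA entry) with -0.33 (-0.45 to -0.20). MRPS5 and MRP21 lie on opposite sides of the threshold of 0.32 without being separated by their intervals.

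**Figure D3:**
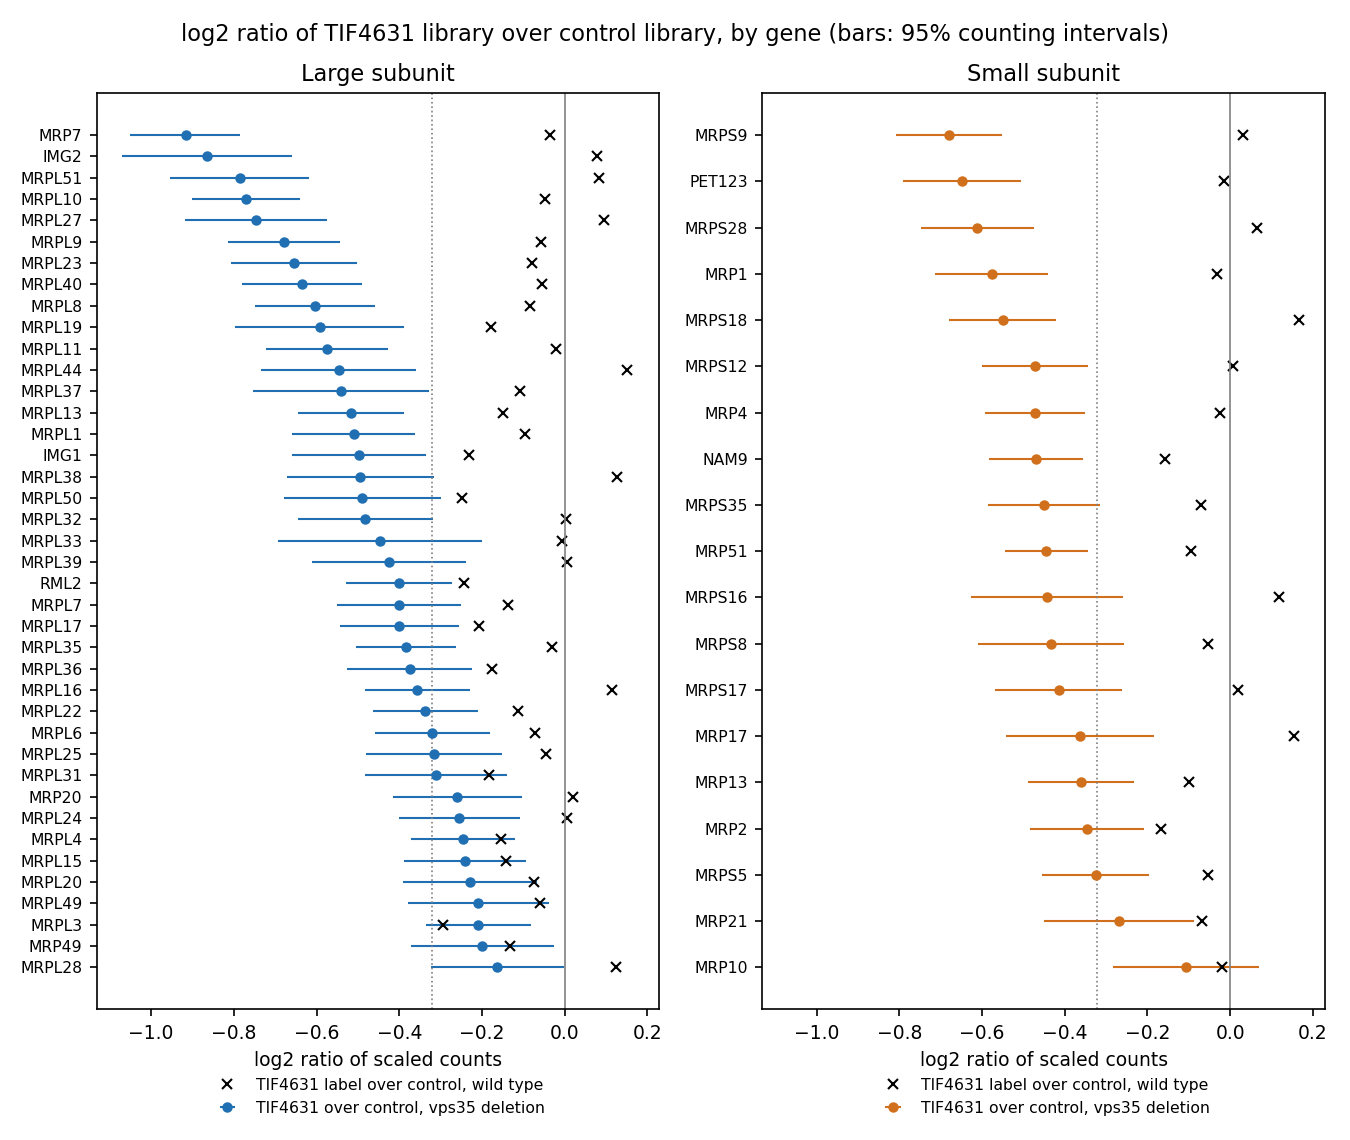
Dots give the log2 ratio of the vps35 TIF4631 library over the vps35 control library for each large-subunit (left) and small-subunit gene (right) with 95% counting intervals, and crosses give the ratio of the library labelled as wild type with TIF4631 over the wild-type control. The dotted line marks a log2 ratio of -0.32. All 59 dots lie left of 0, from -0.92 for MRP7 to -0.11 for MRP10, whereas the crosses lie on both sides of 0.

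Members are listed here by place in the ribosome, as known from bacterial and mitochondrial structures. All 59 were below 0 in this comparison, so the genes of every region had to be. These groups were drawn up after the values had been seen. Families at the polypeptide exit of the large subunit stood at -0.63 for MRPL40 (uL24), -0.60 for MRPL8 (bL17), -0.48 for MRPL32 (bL32), -0.34 for MRPL22 (uL22), -0.26 for MRP20 (uL23) and -0.25 for MRPL4 (uL29). MRPL32 is also known as the protein whose maturation by the m-AAA protease gates assembly of the large subunit.

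Families of the stalks stood at -0.59 for MRPL19 (uL11), -0.57 for MRPL11 (uL10) and -0.51 for MRPL1 (uL1). MRPL19 overlaps the annotated ORF YNL184C, so its count may hold reads of that neighbour. Near the catalytic centre and the tRNA sites, MRP7 (bL27) stood at -0.92, MRPL9 (uL3) at -0.68, RML2 (uL2) at -0.40 and MRPL16 (uL16) at -0.36.

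On the small subunit, genes for the platform families stood at -0.61 for MRPS28 (uS15), -0.55 for MRPS18 (uS11), -0.36 for MRP17 (bS6) and -0.27 for MRP21 (bS21). MRPS12 of the decoding centre stood at -0.47 (-0.60 to -0.34). At the mRNA entry, NAM9 (uS4) stood at -0.47 and MRPS5 (uS5) at -0.33. MRP51, which is tied genetically to the leaders of the COX2 and COX3 mRNAs, stood at -0.44.

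Genes of families shared with bacteria and genes of families found only in mitochondrial ribosomes were both low in this comparison. In the large subunit the median was -0.48 over 25 shared families and -0.38 over 15 mitochondria-only families. In the small subunit it was -0.44 over 14 shared and -0.45 over 5 mitochondria-only families. Across the 59 genes, which all share the same libraries, Pearson r between the ratio in vps35 cells and log2 coding length was -0.097, and between the ratio and log2 mean RPKM it was 0.113. Within the 19 small-subunit genes, r with log2 coding length was -0.513, and within the 40 large-subunit genes it was 0.040. These are descriptions across genes, which are not replicates.

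The comparison of the library labelled as wild type with TIF4631 with the wild-type control has no TIF4631 excess behind it. The members were close to the control there, with a median log2 ratio of -0.07 in the large and -0.02 in the small subunit. By the rule of size 0 members were lower, against 5.38% of all ORFs, and 0 were higher, against 7.04%. Beyond counting error 16 members were lower and 4 higher, against 23.6% and 24.0% of all ORFs.

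The lowest in the large subunit were MRPL3, at -0.30 (-0.40 to -0.19), and MRPL50, at -0.25 (-0.39 to -0.10), and the highest MRPL44, at 0.15, and MRPL38 (uL14), at 0.13. The lowest in the small subunit were MRP2, at -0.17 (-0.28 to -0.06), and NAM9, at -0.16 (-0.25 to -0.07). The highest were MRPS18, at 0.17 (0.06 to 0.27), and MRP17, at 0.16. Across the 59 members the ratios of the TIF4631 labels in the 2 strains, which come from separate pairs of libraries, correlated with Pearson r = -0.243, against -0.157 over all 4997 ORFs. MRP7 and IMG2, the lowest in vps35 cells, stood here at -0.04 and 0.08.

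With the TIF4631 plasmid in both strains, the comparison of the deletion with wild type sets the library with the TIF4631 excess against one without it, so strain and TIF4631 level differ together. It shares the vps35 TIF4631 library with the comparison within vps35 cells. The medians were -0.43 in the large and -0.46 in the small subunit. Of 59 members 41 were lower, 26 in the large and 15 in the small subunit, against 19.4% of all ORFs, and 0 were higher, against 17.0%. By a 1.5-fold rule 14 were lower, against 7.88% of all ORFs. With scaling by total counts, all ORFs split into 758 lower and 1138 higher instead of 970 lower and 849 higher.

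MRP7, at -0.78 (-0.91 to -0.66), and IMG2, at -0.76 (-0.95 to -0.57), were again lowest in the large subunit, and MRPS9, at -0.63 (-0.75 to -0.51), and MRPS28, at -0.60 (-0.73 to -0.48), in the small subunit. The highest were MRPL3, at -0.04 (-0.16 to 0.07), and MRP49, at -0.16, in the large subunit, and MRP10, at -0.25 (-0.41 to -0.10), and MRPS35, at -0.29, in the small subunit. MRPL3 was the single member of 59 not lower beyond counting error, where 35.3% of all ORFs were lower.

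The difference between the TIF4631 ratio in vps35 cells and that in wild type is the interaction of the design, and it too rests on the label of the second library. Its median was -0.36 in the large and -0.43 in the small subunit. By the rule of size 34 members were lower, 21 in the large and 13 in the small subunit, against 19.4% of all ORFs, and 0 were higher, against 17.3%. By a 1.5-fold rule 12 were lower, against 7.68% of all ORFs. Beyond counting error 49 of 59 were lower, against 31.5% of all ORFs. The ratio was above 0 in wild type and below 0 in vps35 cells, each beyond counting error, for 4 members, against 8.47% of all ORFs, and the reverse for 0 members, against 9.33%. With total counts the first of these fell to 1 member, against 6.44% of all ORFs.

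IMG2 was lowest, at -0.94, followed in the large subunit by MRP7, at -0.88 (-1.05 to -0.71). In the small subunit MRPS18 stood at -0.72 (-0.88 to -0.55) and MRPS9 at -0.71 (-0.87 to -0.55). The highest were MRPL3, at 0.09 (-0.08 to 0.25), and MRP49, at -0.07, in the large subunit, and MRP10, at -0.09 (-0.31 to 0.14), and MRP2, at -0.18, in the small subunit. For MRPL3, MRP49 and MRP10 the interval held 0.

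The only test that the design allows fits strain and plasmid as additive factors to all 4 libraries, with 1 residual degree of freedom, by the quasi-likelihood test of edgeR, with p-values adjusted by Benjamini-Hochberg over 4997 ORFs. It counts any interaction as spread between libraries. Its plasmid factor pools the library with the TIF4631 excess and the labelled wild-type library without it. A result for plasmid is therefore not a measure of the TIF4631 excess. In this model 0 of 59 members passed an adjusted p of 0.05 for strain, where 31 of all ORFs (0.620%) passed, and 0 passed for plasmid, where 0 of all ORFs (0.00%) passed. The smallest adjusted p of a member was 0.5135 for strain, that of MRP21, and 0.9985 for plasmid. At an unadjusted p under 0.05, 4 members lay below 0 for strain, MRPL7, MRPL39, MRPL50 and MRP21, where 4.22% of all ORFs did. For plasmid 1 member, IMG1 (bL19), did, where 1.02% of all ORFs did. Above 0 there were 0 members for either factor, against 2.74% of all ORFs for strain and 2.34% for plasmid. By DESeq2 in the same model 0 members passed for either factor, and 0 were under an unadjusted p of 0.05, where 226 of all ORFs were for strain and 95 for plasmid. For plasmid DESeq2 gave an adjusted p to 36 of 59 members and 2672 of 4997 ORFs, and the others could not pass.

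Genes that work with these proteins showed in part the same picture in the TIF4631 comparison within vps35 cells. These lists were chosen with earlier results of these libraries known. In this comparison 16.3% of all ORFs were lower and 13.8% higher. Of 13 other small-subunit proteins 9 were lower and 0 higher, with a median log2 ratio of -0.33, and of 4 other large-subunit proteins 4 were lower and 0 higher, with a median of -0.48. RSM27 stood at -0.77 (-0.96 to -0.58) and RSM18 (bS18) at -0.15, the lowest and highest of the small-subunit list. MRX14 and RTC6, the lowest and highest of the large-subunit list, stood at -0.63 (-0.81 to -0.44) and -0.46 (-0.62 to -0.31). VAR1, the mitochondrially encoded protein, had 91, 9, 9 and 4 counts, too few for the filter on summed counts.

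Of 12 mitochondrial translation factors 7 were lower and 0 higher, against 16.3% and 13.8% of all ORFs, with a median of -0.42. IFM1, the initiation factor that brings the initiator tRNA, stood at -0.74 (-0.98 to -0.49), and HER2, a subunit of the enzyme that makes glutaminyl-tRNA, at 0.08 (-0.15 to 0.31). Of 11 assembly factors 5 were lower and 0 higher, with a median of -0.28. The GTPase MTG2 of large-subunit assembly stood at -0.96 (-1.27 to -0.65), at 14.8, 15.4, 18.3 and 9.41 CPM, and GEP3, also named MTG3, at 0.00 (-0.27 to 0.28). In each of these lists 1 gene, HER2 or GEP3, lay above 0.

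Of 4 membrane proteins that hold the ribosome at the inner membrane 1 was lower, against 16.3% of all ORFs. This was MBA1, at -0.55 (-0.68 to -0.41), and YLH47 was highest, at -0.06 (-0.18 to 0.07). Of 17 activators of the translation of mitochondrial mRNAs 9 were lower and 0 higher, with a median of -0.39. PET111, the activator of COX2 mRNA, stood at -0.62 (-0.94 to -0.30), and AEP3 at 0.22 (-0.10 to 0.55). Of 4 genes of mitochondrial DNA upkeep and transcription 1 was lower, the RNA polymerase RPO41, at -0.35 (-0.44 to -0.27). ABF2, which packages mitochondrial DNA, was highest of those 4, at 0.21 (0.15 to 0.26).

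Within vps35 cells, most calls among the respiratory chain genes were lower, and all calls among the cytosolic ribosome genes were higher. Of 36 nuclear genes of the respiratory chain and ATP synthase 9 were lower and 1 higher, with a median of -0.17. Cytochrome c, encoded by CYC1, stood at -0.95 (-1.01 to -0.89), and the cytochrome oxidase subunit COX7 at 0.44 (0.38 to 0.50). Of 67 cytosolic ribosomal protein genes measured, of 138 named so in the annotation, 0 were lower and 16 (23.9%) higher, with a median of 0.12. The lowest was the stalk protein RPP2B, at -0.31, and the highest RPS25B, at 0.73. In the wild-type comparison of the TIF4631 label the median of these 67 genes was -0.25. All 67 were lower there beyond counting error, against 23.6% of all ORFs. A shift shared by a whole gene set was thus also seen between libraries without a TIF4631 excess. No test of the difference between these lists and the members was made.

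**Figure D4:**
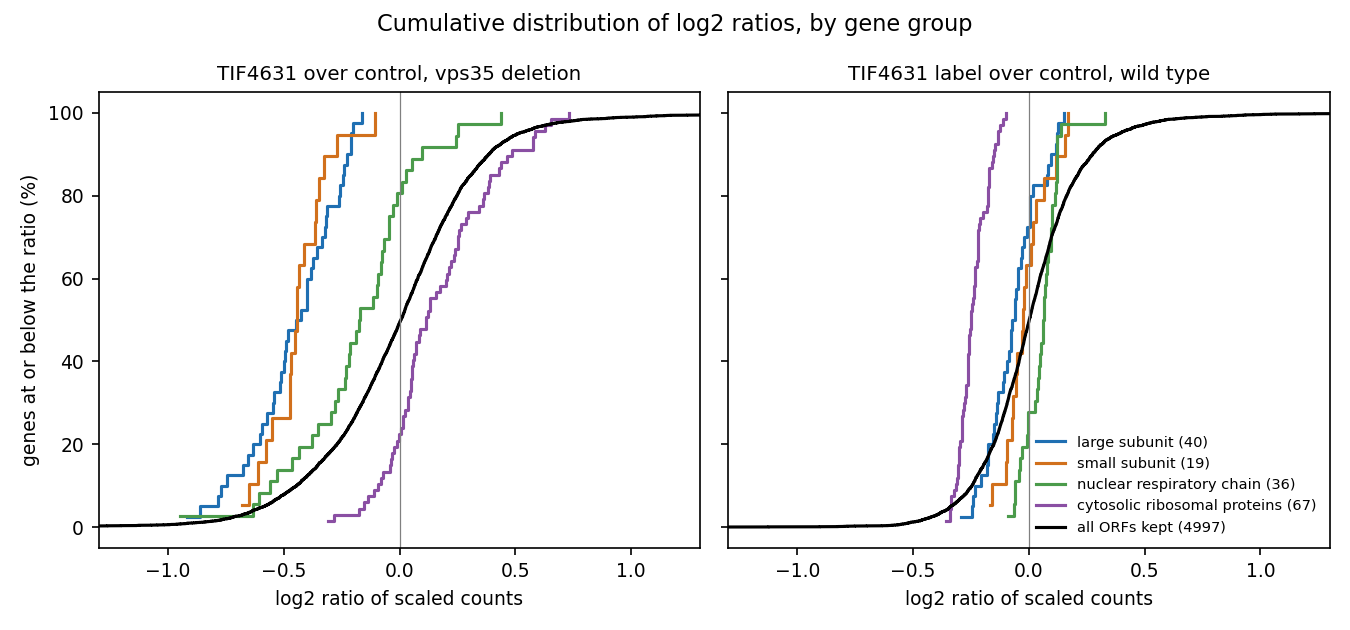
Each curve gives the percentage of genes at or below a log2 ratio (log2 axis), for TIF4631 over control in vps35 cells (left) and the TIF4631 label over control in wild type (right). On the left both subunits (blue and orange, medians -0.44) lie left of the respiratory chain genes (green, median -0.17), all ORFs (black, median 0.01) and cytosolic ribosomal proteins (purple, median 0.12). On the right the members lie near all ORFs and the cytosolic ribosomal proteins lie left of them.

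PUF3 itself was measured at 323, 274, 298 and 223 CPM, with a log2 ratio of -0.42 (-0.49 to -0.35) in the TIF4631 comparison within vps35 cells. It was lowest in the vps35 TIF4631 library, as were all 59 members and 36.9% of all ORFs kept. Its highest level was in the wild-type control library. Of the measured HAP genes, which regulate transcription of respiratory genes, HAP3 was lowest, at -0.57 (-0.84 to -0.30), and HAP1 highest, at 0.44 (0.37 to 0.50). What the level of PUF3 had to do with the members was not tested.

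The TGTANATA element was common in some of the neighbouring lists and less so in others. It was held by 12 of 13 other small-subunit genes, 4 of 4 other large-subunit genes, 9 of 12 translation factors, 9 of 11 assembly factors, 4 of 4 membrane receptors and 13 of 17 translational activators. It was held by 1 of 4 genes of mitochondrial DNA expression, 1 of 6 regulators, 7 of 36 respiratory chain genes (19.4%) and 5 of 67 cytosolic ribosomal protein genes (7.46%). Since every member held it, members with and without it could not be set side by side.

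Among other nuclear ORFs, the 784 with the element had a median log2 ratio of -0.13 in the TIF4631 comparison within vps35 cells, with 207 (26.4%) lower and 59 (7.53%) higher. The 4147 without it had a median of 0.03, with 560 (13.5%) lower and 631 (15.2%) higher. Of the other ORFs with the element, the 211 with C 2 bases before it had a median of -0.30, with 93 (44.1%) lower, and the 573 without that C a median of -0.07. The medians of the members were lower, at -0.45 for the 47 with that C and -0.43 for the 12 without. In the large subunit they were -0.49 for the 34 with that C and -0.32 for the 6 without. In the small subunit they were -0.44 for the 13 with it and -0.46 for the 6 without. These medians are descriptions, and the groups also differ in function.

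In the promoter windows, 250 bases before to 50 bases after the start codon, CCAAT, the core letters bound by the HAP complex, occurred on either strand in 22 of 59 members (37.3%), against 44.2% of all nuclear ORFs. Among respiratory chain genes it occurred in 31 of 36 (86.1%). AATTTT on either strand occurred in 26 of 59 members (44.1%), against 53.0% of all nuclear ORFs. Members with and without CCAAT had medians of -0.37 and -0.47 in the TIF4631 comparison within vps35 cells.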

How the data were processed

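Whole-number counts of reads per ORF ("total reads" per the file headers) and RPKM values were deposited for 1 library per group. The submitters' processing notes name the tools Bowtie2, CASAVA and cutadapt 1.3 and the build sacCer3, and the counting tool is not given in the sources used here. The RPKM values deposited by the authors use the table's summed count and, for 96.0% of ORFs, the annotated gene length less 15 nt. For the 59 members the length was the coding length less 15 nt. These values served only to compare levels between genes. ORFs with 200 or more counts over the libraries were kept, 4997 of 5441, with all 59 members among them. Counts were scaled by TMM factors (edgeR 4.0.16, R 4.3.3) of 0.997, 0.971, 1.01 and 1.02. Log2 ratios had 0.5 counts added and 95% Clopper-Pearson intervals on the 2 counts, or a normal interval on log counts for the difference of ratios. Total counts were 17669055, 18067205, 11240681 and 16341045 in the order used below.

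Genes named were, by ratio within vps35 cells, the 5 lowest and 3 highest of the large and the 3 lowest and 3 highest of the small subunit. In each other comparison the 2 lowest and 2 highest of each subunit were named, with the 3 highest and 3 lowest of each subunit by mean RPKM and the extremes of the other lists. Genes grouped by place in the ribosome were chosen after their values were seen. Members and lists were chosen with earlier results of these data known, so a lower level of these genes in the vps35 TIF4631 library is not independent evidence. The additive model used edgeR, with DESeq2 1.42.0 as an alternative. Element and promoter windows were read from the RefSeq R64 genome, because no promoter table was given. Python 3.11.15, pandas 2.3.3 and scipy 1.17.1 were used.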

Additional observations from a re-analysis of the deposited data

Results flagged for a closer look

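For 4 members the TIF4631 label went with opposite directions in the 2 strains, each beyond counting error, higher in wild type and lower in vps35 cells. Of all ORFs 8.47% did the same, and 9.33% did the reverse, where 0 members did. With 1 library per group the difference was not tested, and the wild-type ratio rests on a library without a TIF4631 excess. MRPS18 was higher in wild type, at 0.17 (0.06 to 0.27), and lower in vps35 cells, at -0.55 (-0.68 to -0.42), a difference of -0.72 on the log2 scale. MRPL44 gave 0.15 (0.00 to 0.30) and -0.55 (-0.73 to -0.36), a difference of -0.70. For MRP17 the ratios were 0.16 (0.01 to 0.30) and -0.36 (-0.54 to -0.18), a difference of -0.52. For MRPL16 they were 0.12 (0.01 to 0.22) and -0.36 (-0.48 to -0.23), a difference of -0.47. The wild-type ratios of MRPL44, MRP17 and MRPL16 lie just above 0. With total counts 1 member, MRPS18, was left, where 6.44% of all ORFs met this description.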

How the results depend on the processing

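The 298 values of named members cover other scalings, count filters, added counts and TMM factors without the library labelled wild type with TIF4631. No ratio whose interval excluded 0 reversed its direction. MRPL3 in deletion over wild type under the TIF4631 plasmid, at -0.04 (-0.16 to 0.07), had an interval that held 0. With total counts the median of all ORFs in that comparison moved from -0.002 to 0.071, and the same shift put MRPL3 above 0. The counts below were also computed without the 3 members that overlap another annotated gene. In the TIF4631 comparison within vps35 cells, between 13 and 48 members were lower, and the medians ran from -0.45 to -0.41 in the large and from -0.46 to -0.43 in the small subunit. Under a 1.5-fold rule 13 members were lower in that comparison, 14 in deletion over wild type under the TIF4631 plasmid, 12 in the difference of ratios and 0 in deletion over wild type under the control plasmid. That last count, 1 in the report, was also 0 with total counts, with total counts without the 50 most abundant ORFs and with 5 counts added. With total counts 1 member, MRPL3 at -0.33, was lower in the wild-type comparison of the TIF4631 label, instead of 0, where 7.24% of all ORFs were. The share of all nuclear ORFs with TGTANATA was 13.5% in windows of 150 bases and 19.7% in windows of 500 bases. With C 2 bases before the element, an alternative chosen after seeing the data, it was 79.7% of members and 4.81% of all nuclear ORFs.

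No library could be left out, because each group has 1, and without 1 library the additive model has no residual degrees of freedom. In that model 0 members passed under each edgeR setting and by DESeq2. For all ORFs, strain called 31 by edgeR and 66 by DESeq2, and plasmid called 0 and 6, the latter of 2672 with an adjusted p. Counting intervals say nothing of the variation between cultures.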
